A study of Mus musculus with 24 samples.

Results

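Serum amyloid A, orosomucoid, haptoglobin, hemopexin, lipocalin-2 and 2 inhibitor genes were followed as the acute phase protein genes of this series. The 10 genes, Saa1, Saa2, Saa3, Orm1, Orm2, Hp, Hpx, Lcn2, Serpina3n and Itih4, were taken by symbol, without a rule on their values, and all 10 were found among the 54658 gene symbols of each count table. The series holds 24 RNA-seq libraries from male C57BL/6 mice aged 7 to 12 weeks that received β-NMN, a precursor of NAD+, at 185 mg/kg/day by intraperitoneal injection, or saline (vehicle). In the sterile peritonitis model, peritoneal exudate cells from 6 mice on vehicle and 6 on β-NMN, all given thioglycollate (TGC), were plated and exposed to E. coli for 6 h. These mice were injected daily for 3 days, the first time together with TGC. In the sepsis model, heart and lung were taken from the same 3 mice on vehicle and 3 on β-NMN the day after cecal ligation and puncture (CLP). Per the paper, these organs followed a single injection given right after surgery, so the treatment differed between the models. Every mouse had peritonitis and every peritoneal culture received bacteria, so the libraries used here give the difference between treatments and no level in healthy mice or unstimulated cells. Exudate cells were plated without sorting, and the CLP organs are whole tissue, in which fewer cells of a type and less RNA per cell cannot be told apart.

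Acute phase proteins are secreted in large amounts when infection or injury raises interleukin-1, tumor necrosis factor and interleukin-6. The liver is the main source of the plasma proteins, where STAT3, C/EBP and NF-κB act on their genes, whereas Saa3 and Lcn2 are also made by macrophages, neutrophils and epithelia. Their products carry lipids on lipoproteins (serum amyloid A), withhold iron from bacteria by binding siderophores (lipocalin-2), bind free hemoglobin (haptoglobin) and heme (hemopexin), bind small lipophilic compounds (orosomucoids) and inhibit serine proteases (Serpina3n).

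Saa3, Saa1 and Saa2 lie on mouse chromosome 7 within 1 cluster, at 46711998 to 46715700, 46740497 to 46742980 and 46751790 to 46754313 (GRCm38, GENCODE M21). Lcn2 lies on chromosome 2 at 32384633 to 32388252, and Serpina3n on chromosome 12 at 104406729 to 104414329. Hp occupies 109575128 to 109579172 of chromosome 8, and Hpx 105591613 to 105600137 of chromosome 7. Orm1 and Orm2 are neighbors on chromosome 4, at 63344560 to 63348163 and 63362449 to 63365878, and Itih4 spans 30886476 to 30902353 of chromosome 14. None of the 10 gene models overlaps another annotated gene. The longest coding transcripts of Saa1 and Saa2 are 87.3% identical and those of Orm1 and Orm2 91%, with Orm3 86.1% identical to Orm1, so the share of reads assigned to each copy depends on how the counting treated multiply mapped reads and is uncertain.

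Promoter sequence was read for the 8 of 10 genes with an entry in the RefSeq promoter table used here, since several of them fell together in the peritoneal cells. Hp and Orm1 had no entry in it and were not read. The windows below run from 250 to 61 bases before the RefSeq transcription start (GRCm38.p6). They are shown for the serum amyloid A genes, Lcn2 and Serpina3n. Those of Orm2, Hpx and Itih4 were read as well and are not shown, although Orm2 and Hpx are among the genes lower in β-NMN lungs. Capitals mark matches, on either strand, to a κB-type motif (GGGNNNNNCC), a C/EBP-type motif (TTGCNNAA) or a STAT-type motif (TTCNNNGAA).
Saa1 (chr7:46743041-46743230, minus strand): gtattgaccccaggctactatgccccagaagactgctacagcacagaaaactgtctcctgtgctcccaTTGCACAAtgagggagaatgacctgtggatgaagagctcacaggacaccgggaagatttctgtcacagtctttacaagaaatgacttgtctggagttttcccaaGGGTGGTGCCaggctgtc
Saa2 (chr7:46751583-46751772, plus strand): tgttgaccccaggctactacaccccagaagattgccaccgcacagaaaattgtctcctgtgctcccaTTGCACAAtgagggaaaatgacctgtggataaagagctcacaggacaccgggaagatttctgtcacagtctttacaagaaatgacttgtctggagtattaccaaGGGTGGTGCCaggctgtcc
Saa3 (chr7:46715737-46715926, minus strand): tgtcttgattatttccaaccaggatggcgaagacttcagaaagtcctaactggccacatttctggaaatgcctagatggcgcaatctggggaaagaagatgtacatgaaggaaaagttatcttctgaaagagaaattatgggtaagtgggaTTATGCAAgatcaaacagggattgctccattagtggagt
Lcn2 (chr2:32387800-32387989, minus strand): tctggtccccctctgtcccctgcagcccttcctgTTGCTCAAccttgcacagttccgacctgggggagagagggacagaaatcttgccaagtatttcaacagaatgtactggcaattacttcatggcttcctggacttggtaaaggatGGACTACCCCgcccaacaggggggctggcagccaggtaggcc
Serpina3n (chr12:104406458-104406647, plus strand): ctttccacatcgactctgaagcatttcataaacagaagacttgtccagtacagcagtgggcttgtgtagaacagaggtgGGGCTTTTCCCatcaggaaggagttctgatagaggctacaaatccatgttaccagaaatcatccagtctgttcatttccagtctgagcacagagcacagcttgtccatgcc

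The Saa1 and Saa2 windows were 93.2% identical, and each held 1 C/EBP-type and 1 κB-type match at nearly the same distance from the start (182 and 78 bases upstream for Saa1, 183 and 79 for Saa2). Saa3 shared 50.5% of aligned letters with Saa1 and held 1 C/EBP-type match, 99 bases upstream and on the opposite strand, without a κB-type match in this window. Lcn2 held 1 match of each of these kinds, 216 and 102 bases upstream. In Serpina3n, κB-type matches on the 2 strands overlap, starting 171 and 170 bases upstream. Over the 8 genes, 6 windows held the C/EBP-type letters and 5 the κB-type letters, against 7.77% and 35.2% of 32851 promoter windows of the same length. No member window held the STAT-type letters, which 5.51% of all windows did. These matches are letters in a window and not shown to be sites in these cells.

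Sequencing depth ranged from 31126823 to 112456050 counts per library in peritoneal cells, from 27319513 to 68523239 in hearts and from 8915366 to 28356786 in lungs. The shallowest lung, of vehicle mouse 2, also stood farthest from the others of its group (SD of its log2 differences 1.57, against 0.450 to 0.602 for the other lungs), and the heart of the same mouse stood farthest among hearts (0.990, against 0.386 to 0.577). Markers matched the labelled organs: the 8 cardiomyocyte genes summed to between 35415 and 61980 CPM (read counts relative to the total of their library) in hearts, and the 8 alveolar genes to between 27800 and 49420 CPM in lungs. In the peritoneal cells the 10 macrophage genes summed to between 6048 and 13010 CPM, and the 12 hepatocyte genes together to at most 2.53 CPM. CPM values were scaled within each tissue by the trimmed mean of M-values (TMM).

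In the peritoneal cells, Saa3, Lcn2 and Hp were by far the most abundant of the group, and all of them fell with β-NMN. Saa3 was 5.31-fold lower, Lcn2 23.5-fold lower and Hp 30.2-fold lower in cells of β-NMN-treated mice. Saa1, Orm1, Serpina3n and Orm2 fell as well, from low mean vehicle levels of 2.17, 1.69, 3.68 and 0.944 CPM. Of the 10 genes, 7 passed the filter on low counts, and each of these 7 fell at an adjusted p below 0.05 (edgeR's quasi-likelihood test with Benjamini-Hochberg adjustment), where 51.6% of the 14985 genes tested were called and 27.9% fell. In 5 of the 7 genes no β-NMN library reached the lowest vehicle library, which was so for 14% of tested genes. Saa1, Orm1 and Orm2 were above the filter in all 6 vehicle libraries but in 3, 4 and 5 β-NMN libraries, so that they entered the test through the group in which they were high. Saa3, Lcn2, Hp and Serpina3n were above it in all 12.

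Saa3, the extrahepatic serum amyloid A, ranged from 2547 to 5358 CPM in the vehicle libraries with a median of 3918 CPM, and from 456 to 1176 CPM with a median of 741 CPM in the β-NMN libraries. Every β-NMN library lay below every vehicle library (log2 fold change -2.41, SE 0.24, adjusted p 1.83e-06). On average Saa3 took 0.396% of all counts in vehicle cells and 0.0747% in β-NMN cells. Per kilobase of its longest coding transcript it ranked 27th of 44030 genes with counts in vehicle cells and 227th of 43727 in β-NMN cells. Saa1, a lipoprotein-borne serum amyloid A of plasma, ranged from 1.13 to 3.8 CPM (median 1.88) in vehicle and from 0.0549 to 0.510 CPM (median 0.279) in β-NMN libraries. The groups did not overlap (log2 fold change -3.13, SE 0.49, adjusted p 9.44e-05). Its near copy Saa2 had between 5 and 28 reads per vehicle library and between 0 and 6 per β-NMN library and was not tested. With the filter removed Saa2 fell as well (log2 fold change -2.82, SE 0.65, adjusted p 4.71e-04).

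Lcn2, the siderophore-binding lipocalin, ranged from 320 to 470 CPM with a median of 407 CPM in vehicle libraries. In β-NMN libraries it ranged from 8.67 to 28.8 CPM with a median of 15.9 CPM. The lowest vehicle library was thus far above the highest β-NMN library (log2 fold change -4.55, SE 0.29, adjusted p 3.57e-08). Lcn2 was 55th of all 14985 genes by p-value, the foremost of the group. Per kilobase it moved from rank 152 in vehicle cells to rank 2565 in β-NMN cells.

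Hp, which encodes the hemoglobin-binding haptoglobin, ranged from 115 to 398 CPM (median 197) in vehicle and from 3.23 to 16.4 CPM (median 6.18) in β-NMN libraries. Again no libraries overlapped (log2 fold change -4.92, SE 0.43, adjusted p 4.88e-07). Hpx, encoding the heme-binding hemopexin, went the other way at a very low level: it had 1 to 18 reads per vehicle library (0.0341 to 0.161 CPM) and 7 to 19 per β-NMN library (0.163 to 0.266 CPM). The 2 groups did not overlap by a narrow margin, and exact permutation (two-sided) on the log2 CPM scale gave p = 0.00216, the smallest that 6 against 6 allows. Hpx did not pass the filter, and without the filter its log2 fold change was 1.27 (SE 0.57, adjusted p 0.142).

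Among the orosomucoids, Orm1 ranged from 1.12 to 2.35 CPM (median 1.66) in vehicle and from 0.0531 to 0.512 CPM (median 0.283) in β-NMN libraries, without overlap (log2 fold change -2.68, SE 0.38, adjusted p 4.47e-05). Orm2 was lower as well but overlapped, with 0.498 to 1.90 CPM in vehicle and 0.179 to 0.652 CPM in β-NMN libraries (log2 fold change -1.23, SE 0.37, adjusted p 0.0126). Of the inhibitors, Serpina3n ranged from 0.648 to 7.19 CPM (median 4.19) in vehicle and from 0.329 to 0.939 CPM (median 0.576) in β-NMN libraries. Only the lowest vehicle library reached into the β-NMN range (log2 fold change -2.67, SE 0.48, adjusted p 3.19e-04). Itih4, an inter-alpha-trypsin inhibitor family member, had at most 15 reads in any library and was not tested. Exact two-sided permutation tests of single genes gave the smallest possible p of 0.00216 for Saa3, Saa1, Lcn2, Hp and Orm1, and p = 0.00866 for Serpina3n and 0.0130 for Orm2.

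**Figure D1:**
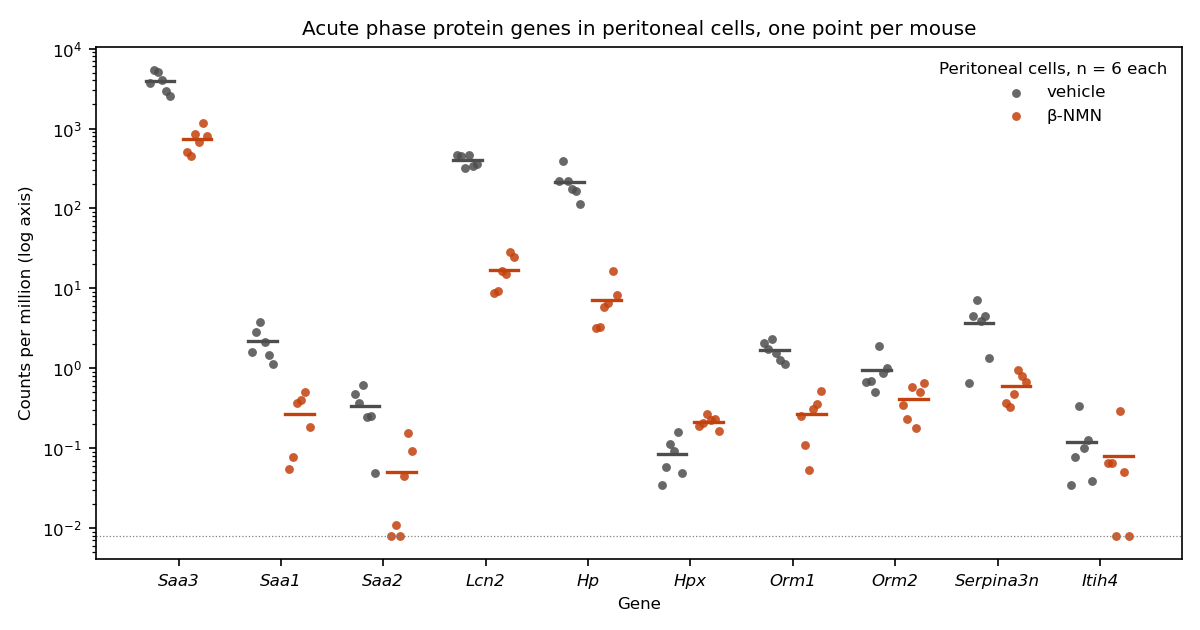
Level in CPM (log axis) of the 10 acute phase protein genes in peritoneal cells, with 1 point per mouse (6 vehicle in grey, 6 β-NMN in orange) and a bar at each group mean; libraries with 0 reads sit on the dotted line. Saa3, Lcn2 and Hp show separated groups at high levels, with Lcn2 between 320 and 470 CPM in vehicle and at most 28.8 CPM in β-NMN libraries.

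Compared per kilobase of the longest coding transcript, the order of mean levels in vehicle peritoneal cells was Saa3 (1802 ± 516 CPM per kb, SD, n = 6), Lcn2 (439 ± 76.8) and Hp (161 ± 72.4). The next genes were Saa1 (3.56 ± 1.65 CPM per kb), Orm1 (2.18 ± 0.600), Serpina3n (1.78 ± 1.15) and Orm2 (1.22 ± 0.645), each overlapping its neighbor in range, whereas the ranges of Saa3, Lcn2, Hp and Saa1 did not touch each other. Saa2 (0.512 ± 0.303 CPM per kb), Hpx and Itih4 came last. Saa3, Lcn2 and Hp kept the first 3 places in β-NMN cells, at 340 ± 119, 18.8 ± 8.90 and 5.38 ± 3.62 CPM per kb.

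Over the 12 peritoneal libraries, which differ by treatment, the genes whose log2 CPM followed Saa3 most closely were Hp (Pearson r 0.989), Csf3 (0.989), Tnfaip6 (0.987), Adora2b (0.986) and Il1b (0.986). Those closest to Lcn2 were Fpr2 (0.997), Fpr1 (0.996), Chil1 (0.996), Trem3 (0.994) and Slc7a11 (0.993). These values describe likeness over libraries that share a large group difference and carry no test.

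The cytokines that induce acute phase genes were lower in the same β-NMN cells. Over all 14985 genes tested 27.9% fell and 23.7% rose. All 9 tested of 11 inducing cytokine genes fell, with Il1b going from 2478 ± 920 to 275 ± 64.3 CPM (SD, n = 6 each; log2 fold change -3.17, SE 0.26, adjusted p 2.55e-07) and Il6 from 257 ± 50.8 to 86.5 ± 17.4 CPM (-1.57, SE 0.15, adjusted p 1.11e-06). Lif, an interleukin-6 family cytokine, fell by 3.03 and Il17a by 3.48 on the log2 scale. Among 11 tested receptor genes 7 fell and 2 rose, with Lifr at -1.40, Il1r1 at -1.99 and Il17ra at -0.56, and with Il6st, the shared signal chain of the interleukin-6 family, at 0.61. Of 14 tested signaling and transcription factor genes 12 fell and none rose, with Cebpb at -1.40, Nfkbiz at -1.09, Relb at -0.87 and the NF-κB inhibitor gene Nfkbia at -0.79.

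Other positive acute phase genes went mostly the same way: 10 of 17 tested fell and 2 rose, with a median log2 fold change of -0.66 against -0.02 over all genes tested. Cd14, the lipopolysaccharide co-receptor, fell by 2.92, Tnfaip6 by 2.61 and complement C3 by 1.75 on the log2 scale, while Serpina3i rose by 1.86 from 0.379 ± 0.176 to 1.4 ± 0.34 CPM. Of the 9 negative acute phase genes only Trf and Apoa2 were tested. Trf, the transferrin gene, rose (log2 fold change 1.61, adjusted p 2.20e-05), and Apoa2 was at 0.23 (adjusted p 0.626). Of 17 receptor and partner genes 8 rose and 4 fell, where 23.7% of all genes tested rose and 27.9% fell. Fpr1 and Fpr2, formyl peptide receptors of which the second also binds serum amyloid A, fell by 5.93 and 3.66, while Cd163, the scavenger receptor for haptoglobin-hemoglobin complexes, rose by 1.95 and the scavenger receptor Cd36 by 1.12.

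Markers of other cell types moved with these differences. The counts below stand beside 27.9% of all genes tested that fell and 23.7% that rose. Of 14 neutrophil genes 11 were tested, 8 fell and 1 rose. Ly6g and Stfa2l1 reached at most 0.134 and 0.153 CPM in β-NMN libraries, under the low-count cutoff of 0.197 CPM. They thus entered the test through the vehicle group. The 14 genes summed to 529 to 1062 CPM in vehicle and 360 to 481 CPM in β-NMN libraries. Most of that sum was Csf3r (log2 fold change -0.58, adjusted p 0.00295), while S100a8 fell from 50.8 to 146 CPM in vehicle libraries to 1.89 to 5.64 CPM in β-NMN libraries. All 6 tested fibroblast genes fell, led by Col1a2 and Col1a1 at -2.84 and -3.28, with sums of 120 to 1188 CPM in vehicle and 26.8 to 103 CPM in β-NMN libraries. Of 5 tested mesothelial genes 4 fell, Wt1 and Msln among them, and 7 of 9 lymphocyte genes fell. Among 10 macrophage genes 4 rose and none fell, with Lyz2 at 0.84 and Cd68 at 0.84, and their sum was 6048 to 9346 CPM in vehicle and 11310 to 13010 CPM in β-NMN libraries. The 4 hemoglobin genes of the partner list, which mark red cells, rose too, with Hba-a1 at 0.842 to 15.4 CPM in vehicle and 17.2 to 47.2 CPM in β-NMN libraries (log2 fold change 2.48) and Hbb-bs at 1.76 to 16.7 and 26.1 to 63.4 CPM (2.77), both without overlap and named after their values were seen. The part of these cell type differences in the acute phase gene differences was not tested. The hepatocyte genes summed to 0.745 to 1.37 CPM in vehicle and 0.535 to 2.53 CPM in β-NMN libraries, with Ttr at 0 in 5 vehicle and 3 β-NMN libraries and Alb at 0 in 2 β-NMN libraries.

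In the hearts of CLP mice, Serpina3n, Saa3 and Lcn2 were lower in every β-NMN-treated mouse than in every vehicle-treated mouse, by 2.37-fold, 3.39-fold and 3.05-fold. None of the 10 genes passed an adjusted p of 0.05 in edgeR's test, in which 0% of the 16245 genes tested did, and 1837 genes (11.3%) had an unadjusted p below 0.05, these 3 among them. Separation of the groups was common in hearts: 23.1% of genes tested had groups that did not overlap and 11.5% were lower in each β-NMN heart than in each vehicle heart, against 3 of the 10 here. DESeq2 on the same counts called Saa3 (adjusted p 0.00675) and Serpina3n (0.0490), among 43 genes higher and 240 lower with β-NMN.

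Saa3 was at 749, 1652 and 520 CPM in the hearts of vehicle mice 1, 2 and 3 and at 336, 213 and 313 CPM in those of β-NMN mice 1, 2 and 3 (log2 fold change -1.76, SE 0.45, edgeR adjusted p 0.435). Vehicle mouse 2 was the highest, and without it the log2 fold change was -1.15 (adjusted p 0.167). Lcn2 stood at 745, 1778 and 420 CPM in vehicle and 342, 212 and 413 CPM in β-NMN hearts (log2 fold change -1.61, SE 0.54, edgeR adjusted p 0.435). The gap between the groups was narrow, from 413 to 420 CPM, and without vehicle mouse 2 the value was -0.86. Serpina3n, the protease inhibitor and the member with the most counts in hearts, was at 1254, 1932 and 658 CPM in vehicle and 608, 447 and 564 CPM in β-NMN hearts (log2 fold change -1.25, SE 0.38, edgeR adjusted p 0.435), and without vehicle mouse 2 its value was -0.83. With 3 mice per group, exact two-sided permutation tests cannot go below p = 0.1, which each of these 3 genes reached.

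Hp was at 129, 371 and 33.6 CPM in vehicle and 175, 46.7 and 24.3 CPM in β-NMN hearts (log2 fold change -1.12, SE 0.97), and Itih4 at 57.3, 106 and 20.1 against 57.8, 13.6 and 14 CPM (-1.11, SE 0.75). The groups overlapped for both genes, and both were highest in the heart of vehicle mouse 2. Without that heart the Hp value was -0.0095 and the Itih4 value -0.47, and without the heart of β-NMN mouse 1 they were -2.31 and -2.13. The heart of vehicle mouse 2 also held 119 CPM over the 7 mesothelial genes, where the other 5 hearts held 6.59 to 16.2 CPM, with Msln at 45.3 CPM against 0.0775 to 2.59. Cardiomyocyte genes were lowest there, with a sum of 35415 CPM against 53274 and 54199 CPM in the other vehicle hearts and 56253 to 61980 CPM in β-NMN hearts, so that the groups did not overlap. Myl2 was at 865 CPM in that heart and at 3422 to 4543 CPM in the others, and Nppa at 4009 CPM against 16.3 to 619 CPM. The part of these mesothelial and cardiomyocyte differences in the Hp, Itih4, Saa3, Lcn2 and Serpina3n values was not tested.

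Saa1, Saa2, Orm1, Orm2 and Hpx showed another order of hearts, with mouse 1 highest in each group. Saa1 was at 85.8, 27.5 and 4.74 CPM in vehicle hearts and 146, 4.36 and 17.7 CPM in β-NMN hearts. Saa2 was at 117, 39.9 and 6.58 CPM and at 198, 6.17 and 19.8 CPM in the same hearts. Orm1 was at 28.1, 8.46 and 1.66 CPM in vehicle hearts and at 54.8, 2.01 and 5.71 CPM in β-NMN hearts. Orm2 was the lowest of them and above the low-count filter in 2 vehicle and 3 β-NMN hearts, at 2.57, 0.470 and 0.116 CPM in vehicle and 7.34, 0.536 and 0.868 CPM in β-NMN hearts. Hpx was at 85.2, 2.46 and 3.70 CPM in vehicle and 147, 2.86 and 13.6 CPM in β-NMN hearts. The groups overlapped for each of these genes, with unadjusted p of 0.306 or more in edgeR's test. Log2 fold changes were 0.50 (Saa1), 0.45 (Saa2), 0.69 (Orm1), 1.41 (Orm2) and 0.83 (Hpx), with standard errors from 1.27 to 1.67. Without the heart of β-NMN mouse 1 these values were -1.83, -2.06, -1.72, -0.60 and -1.89, so their direction rested on that mouse.

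Of the 12 hepatocyte genes, 9 were highest in mouse 1 among vehicle hearts and all 12 in mouse 1 among β-NMN hearts. Fgb, a fibrinogen chain and one of the highest of the 12 hepatocyte genes there, was at 58.0, 0.376 and 3.93 CPM in vehicle and 98.8, 2.59 and 8.71 CPM in β-NMN hearts. Alb, the albumin gene, named here after its values were seen, was at 38.3, 0.169 and 2.65 CPM and at 60.03, 0.721 and 10.8 CPM. Ahsg, Tat and Cyp2e1 were instead highest among vehicle hearts in mouse 2, at 64.2, 12.4 and 8.03 CPM. The 12 genes summed to 28.3 to 173 CPM in vehicle and 24.2 to 304 CPM in β-NMN hearts, with mouse 1 highest in both. The part of RNA from hepatocytes in the Saa1, Saa2, Orm1, Orm2 and Hpx values was not tested.

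**Figure D2:**
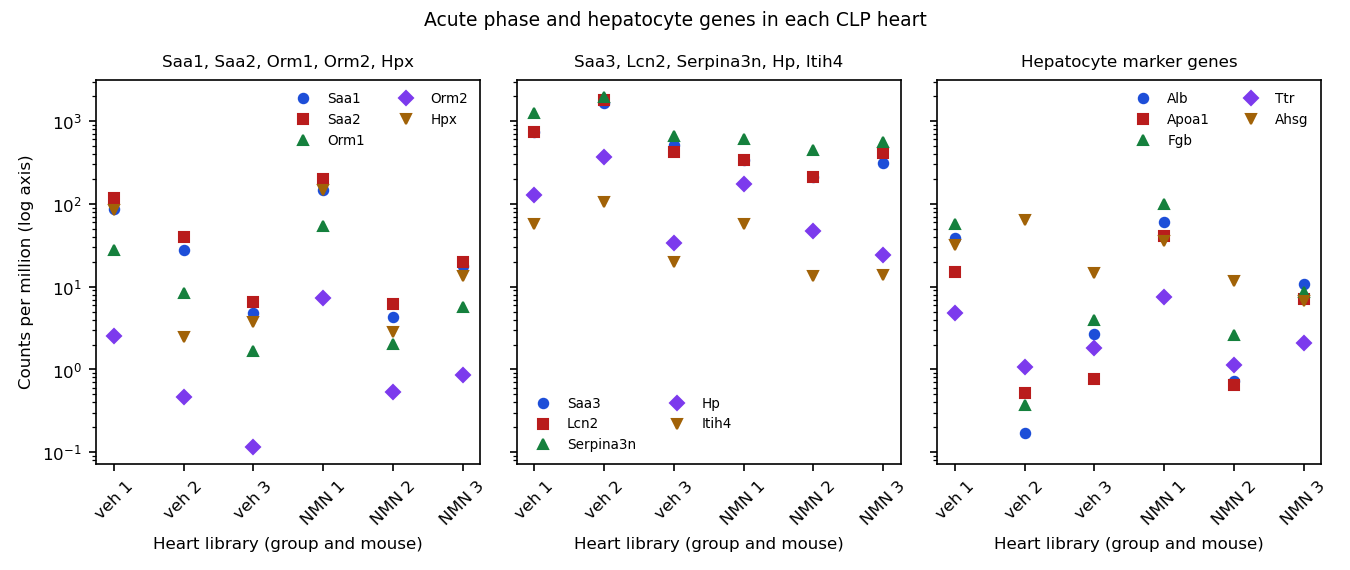
Level in CPM (log axis) in each of the 6 CLP hearts (vehicle mice 1 to 3, then β-NMN mice 1 to 3) for Saa1, Saa2, Orm1, Orm2 and Hpx (left), Saa3, Lcn2, Serpina3n, Hp and Itih4 (middle) and 5 hepatocyte genes (right). The left-hand genes and Alb, Apoa1, Fgb and Ttr are highest in mouse 1 of both groups, whereas Saa3, Lcn2 and Serpina3n are lower in all β-NMN hearts.

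In the lungs of CLP mice Hpx, Orm1, Saa2 and Orm2 were lower in every β-NMN lung than in every vehicle lung. The log2 fold change was below 0 for all 10 genes, but that of Itih4 was near 0 and turned positive under limma-voom (0.25), and that of Serpina3n turned positive with the replicate block (0.19). No gene of the group passed an adjusted p of 0.05 in edgeR's test, and 0% of the 17008 genes tested did, with 301 (1.77%) at an unadjusted p below 0.05. Those 301 genes included the 4 named here. Groups did not overlap in 8.21% of tested genes, and were separated with lower β-NMN values in 3.75% of them and in 4 of these 10. Of the 4, Orm2 was above the low-count filter in 3 vehicle and 2 β-NMN lungs, so that it entered through the group in which it was high.

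Hpx was at 19.3, 14.3 and 16.8 CPM in the lungs of vehicle mice 1, 2 and 3 and at 3.84, 7.62 and 7.37 CPM in those of β-NMN mice 1, 2 and 3. The difference was 2.67-fold (log2 fold change -1.42, SE 0.34, edgeR adjusted p 0.969) and was 10th among all genes tested when ordered by p-value. It was -1.16 to -1.57 when any 1 lung was left out, and limma-voom with sample weights called it (adjusted p 0.0498). Orm1 was at 16.3, 57.1 and 18.1 CPM in vehicle and 5.60, 3.91 and 7.92 CPM in β-NMN lungs (log2 fold change -2.38, SE 0.57, rank 12 by p-value). Saa2 stood at 74.3, 231 and 35.4 CPM in vehicle and 15.8, 11.8 and 23.8 CPM in β-NMN lungs (-2.73, SE 0.70, rank 20 by p-value). Orm2 was at 2.60, 20.1 and 2.90 CPM and at 2.44, 0.348 and 0.954 CPM (-2.77, SE 1.06), with a gap of only 2.44 to 2.60 CPM between the groups. For Orm1, Saa2 and Orm2 vehicle mouse 2 was the highest by far, and without it the log2 fold changes were -1.56, -1.68 and -1.19.

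Saa3 was at 2014, 10304 and 1423 CPM in vehicle and 1851, 402 and 2085 CPM in β-NMN lungs (log2 fold change -1.66, SE 0.92), and without vehicle mouse 2 the value was -0.24. Saa1 was at 136, 221 and 52.5 CPM and at 83.3, 22.9 and 114 CPM (-0.90, SE 0.69). Lcn2 stood at 1481, 2240 and 1373 CPM in vehicle and 841, 390 and 1397 CPM in β-NMN lungs (-0.95, SE 0.49). In each of these 3 genes the groups overlapped, β-NMN mouse 2 was lowest and vehicle mouse 2 highest. Hp ranged from 1796 to 3676 CPM in vehicle and from 1156 to 2391 CPM in β-NMN lungs (-0.49, SE 0.43). Without vehicle mouse 2 the values were -0.08 for Hp, -0.36 for Saa1 and -0.70 for Lcn2, and without β-NMN mouse 2 they were -0.25, -0.45 and -0.59.

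Serpina3n and Itih4 showed no separation in lungs. Serpina3n was at 1296, 152 and 719 CPM in vehicle and 541, 497 and 788 CPM in β-NMN lungs (log2 fold change -0.25, SE 0.68). Its lowest value was in vehicle mouse 2, the lung in which Saa3, Saa1, Saa2, Orm1, Orm2, Hp and Lcn2 were all highest. Itih4 was at 38.6 to 54.9 CPM in vehicle and 38.0 to 55.5 CPM in β-NMN lungs, a log2 fold change of -0.01 with a 95% confidence interval from -0.59 to 0.57.

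Hepatocyte genes were low in lungs and also lower with β-NMN in part: 3 of the 8 tested were lower without overlap, where 3.75% of all genes tested were, with Alb at 6.04, 6.21 and 8.45 CPM in vehicle and 0.731, 2.82 and 3.15 CPM in β-NMN lungs. The 12 genes summed to 35.8 to 59.7 CPM in vehicle and 18.03 to 34.1 CPM in β-NMN lungs. Neutrophil genes, by contrast, overlapped between the groups, summing to 1861 to 3163 CPM in vehicle and 1747 to 2714 CPM in β-NMN lungs. Macrophage genes summed higher with β-NMN, without overlap, at 1708 to 4696 CPM in vehicle and 5341 to 5886 CPM in β-NMN lungs. Most of that sum was Lyz2, and of the 10 genes 4 had a log2 fold change above 0 and 6 below. Airway secretory genes were lower in part as well: 7 of 8 had a log2 fold change below 0 (median -1.29) and 3 of 8 were lower without overlap. Muc5b was at 197, 706 and 289 CPM in vehicle and 49.5, 65.2 and 24.0 CPM in β-NMN lungs, and Scgb3a1 at 490 to 2257 CPM in vehicle and 42.4 to 283 CPM in β-NMN lungs, while the 8 genes summed to 53489 to 73350 CPM and 33112 to 61514 CPM. Cardiomyocyte genes summed to 258 to 423 CPM in vehicle and 75.9 to 251 CPM in β-NMN lungs, without overlap, and 2 of the 7 tested were lower without overlap. The part of hepatocyte, macrophage, airway and cardiomyocyte RNA in the Saa3, Lcn2, Hpx, Orm1, Saa2 and Orm2 values was not tested.

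**Figure D3:**
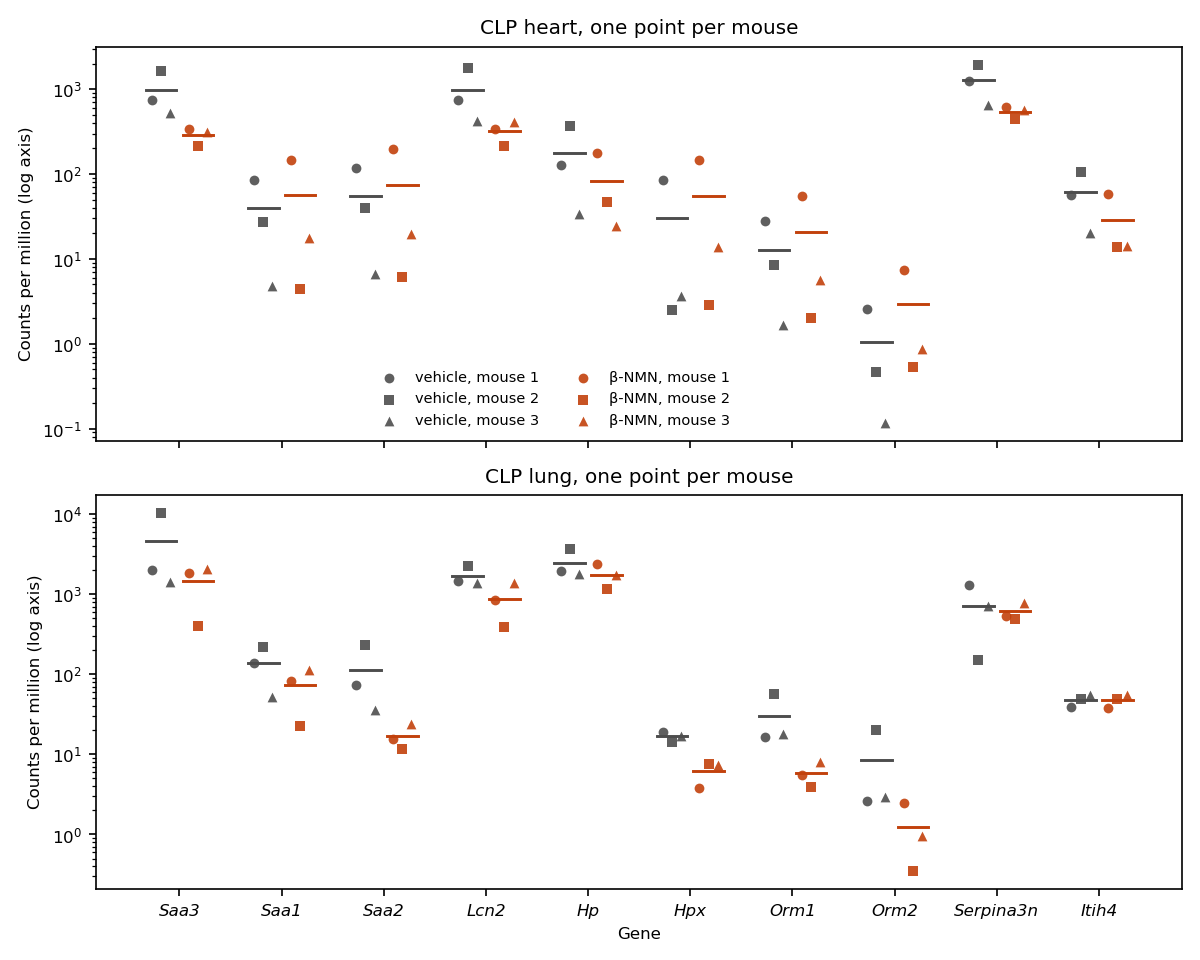
Level in CPM (log axis) of the 10 genes in CLP hearts (top) and lungs (bottom), with 1 point per mouse, marker shape giving the mouse (1 circle, 2 square, 3 triangle), color the treatment, and a bar at each group mean. In hearts Saa3, Lcn2 and Serpina3n and in lungs Hpx, Orm1, Saa2 and Orm2 show β-NMN mice below all vehicle mice, and vehicle mouse 2 is often the highest.

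**Figure D4:**
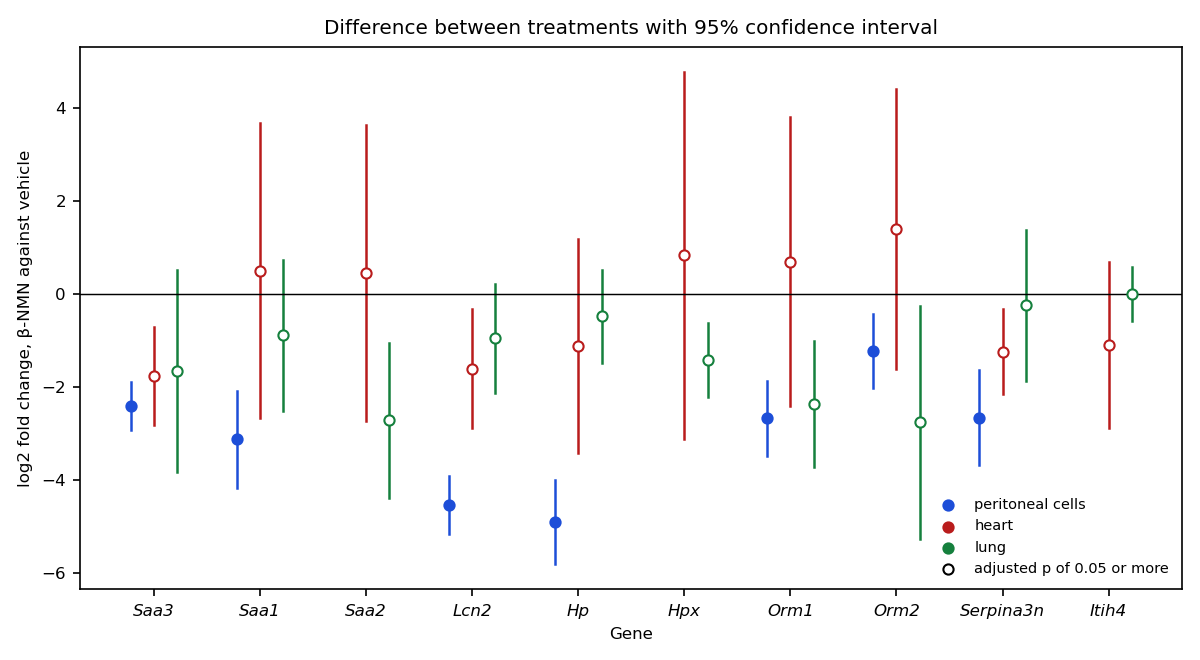
Log2 fold change of β-NMN against vehicle with 95% confidence interval for each gene in peritoneal cells (n = 6 against 6), heart and lung (n = 3 against 3); filled points have an adjusted p below 0.05 in edgeR's test. Only the 7 genes tested in peritoneal cells are filled, and the intervals of Saa1, Saa2, Orm1, Orm2 and Hpx in heart reach from -1.61 or lower to 3.64 or higher.

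In edgeR with the low-count filter and all 6 libraries of an organ, no gene of the pathway lists was called in heart or lung. DESeq2 called 9 other positive acute phase genes, 3 inducing cytokines, 1 receptor, 2 signaling genes and 3 partners in hearts, and 1 other positive acute phase gene in lungs. In hearts, 5 of the 9 tested inducing cytokine genes were lower in each β-NMN heart than in each vehicle heart, where 11.5% of all genes tested were. Il6 was at 1.03, 7.62 and 4.07 CPM in vehicle and 0.0372, 0.0924 and 0.0620 CPM in β-NMN hearts (log2 fold change -5.92, SE 0.87, edgeR adjusted p 0.435), and Lif was at -3.65 (SE 0.61). Il6 and Il1a (0.112, 0.0370 and 0.186 CPM) were under the low-count cutoff of 0.199 CPM in every β-NMN heart. Lif and Osm were under it in β-NMN mice 1 and 3. These genes, which are among the 5, thus entered the test through the group in which they were high. Tnfaip6 and Il1rn, from the other positive acute phase genes, stood at -2.0 (SE 0.27) and -1.75 (SE 0.30). Socs3, which is induced by STAT3 and restrains it, was at -2.32 (SE 0.41), and Cebpd at -1.19 (SE 0.31). Of the receptors, 7 of 12 were lower in each β-NMN heart, with Tnfrsf1b at -0.67 and Il1rap at -0.92. Among the partners, Tlr2 stood at -1.01 and Cd163 at -1.45, and among the negative acute phase genes Ahsg at -1.06 and Apoa1 at 1.57 with overlapping groups. In hearts, 6 of 10 tested neutrophil genes were lower in each β-NMN mouse too, S100a9 and S100a8 among them, against the same 11.5% of all genes, with sums of 29.0 to 49.5 CPM in vehicle and 18.3 to 21.7 CPM in β-NMN hearts. The part of these neutrophil differences in the Saa3 and Lcn2 values of hearts was not tested.

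In lungs 2 of the 9 tested inducing cytokine genes were lower in each β-NMN mouse, where 3.75% of all genes tested were, Il1b at -0.94 (SE 0.30) and Il6 at -1.20 (SE 0.55). Il6 was at 0.708, 1.01 and 0.497 CPM in vehicle and 0.183, 0.425 and 0.293 CPM in β-NMN lungs. The low-count cutoff was 0.427 CPM before TMM scaling, so that Il6 entered the test through the group in which it was high. Hamp, the gene of the iron hormone hepcidin, was at 4.05, 11.4 and 2.98 CPM in vehicle and 0.731, 0.812 and 1.21 CPM in β-NMN lungs (log2 fold change -2.71, SE 0.62), and Serpina1e was at -1.68. Of the negative acute phase genes, which the liver makes less of in inflammation, Fetub stood at -1.06, Alb at -1.61 and Ahsg at -1.09, each also without overlap. Il17ra stood at -0.72 and Tnfrsf1b at -0.46. Cebpb stood at -1.71, Nfkbia at -2.15, Hba-a2 at -1.89 and Hmox1 at -0.95, and all 4 were highest in the lung of vehicle mouse 2. Nfkbia was at 5993 CPM there and at 305 to 839 CPM in the others, Hba-a2 at 4669 against 387 to 732 CPM, Cebpb at 1175 against 115 to 262 CPM and Hmox1 at 159 against 35.9 to 71.2 CPM. The edgeR adjusted p was 0.969 for every gene named from these lists.

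**Figure D5:**
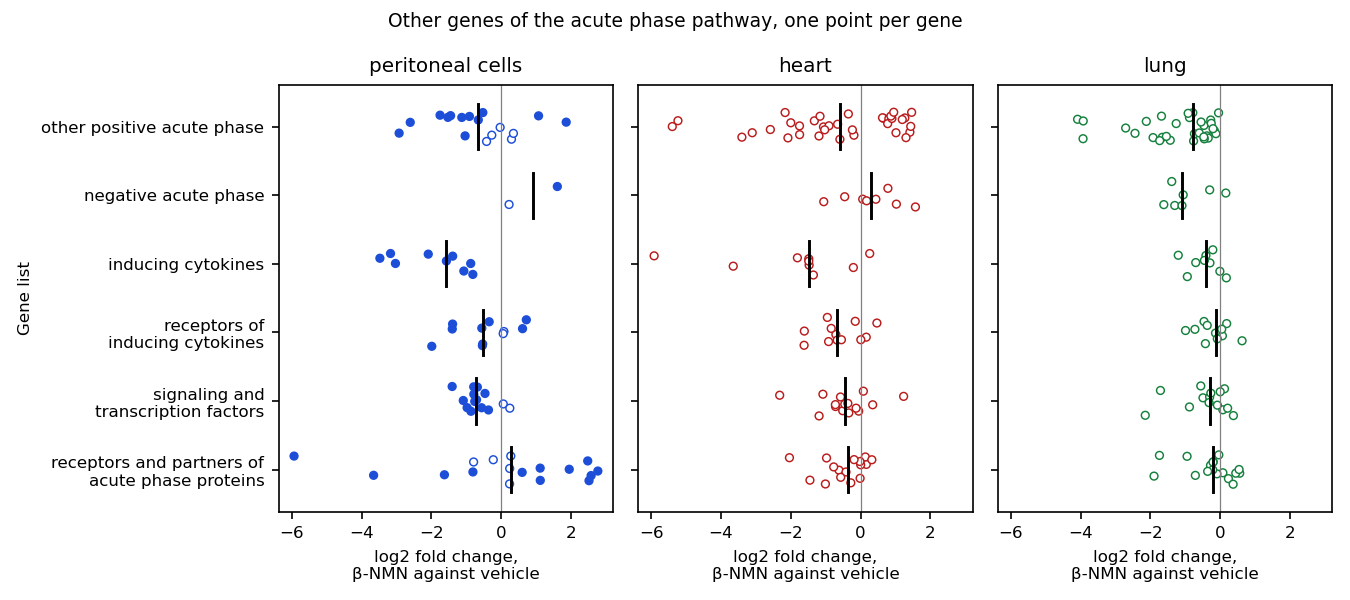
Log2 fold change of β-NMN against vehicle for the other acute phase genes, their inducers, receptors and transcription factors, with 1 point per tested gene, filled where the adjusted p is below 0.05, and a black line at each list's median. In peritoneal cells all 9 tested inducing cytokines are filled and below 0, and no gene is filled in heart or lung.

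Heart and lung of the same 6 mice were compared on a common scale over the 12 CLP libraries, with each group counted equally. Hp was 10.7-fold higher in lung, Saa3 2.99-fold higher in lung and Hpx 6.31-fold higher in heart, and the other 7 genes did not pass the test. This fit did not use the mouse as a block, and with that block Hpx did not pass. Of all 18318 genes tested, 64.8% were called, 35.9% higher in lung and 28.9% higher in heart, against 2 and 1 of these 10. Hp was at 30.6 to 462 CPM in hearts and 921 to 2696 CPM in lungs and was higher in the lung of 6 of 6 mice (log2 difference of lung minus heart 3.43, SE 0.61, edgeR adjusted p 4.27e-04). Saa3 was at 273 to 2056 CPM in hearts and 320 to 7557 CPM in lungs, and higher in the lung of 6 of 6 mice (1.58, SE 0.53, edgeR adjusted p 0.0212). Without β-NMN mouse 1 the Saa3 difference was 1.54 (adjusted p 0.0726) and without β-NMN mouse 3 it was 1.39 (0.0868).

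The Hpx difference rested on a few hearts. Hpx was higher in the heart of 3 of 6 mice and higher in the lung of the other 3 (log2 difference -2.66, SE 0.99, edgeR adjusted p 0.0327). With the mouse as a block it was -0.81 (adjusted p 0.524), without vehicle mouse 1 it was -1.07 (0.285), without β-NMN mouse 1 -1.18 (0.299) and without β-NMN mouse 3 -2.98 (0.0554). Serpina3n was higher in the heart of 6 of 6 mice, at 573 to 2405 CPM in hearts and 111 to 1053 CPM in lungs, and lay just outside the threshold (log2 difference -0.98, SE 0.43, edgeR adjusted p 0.0657). It passed in DESeq2 (adjusted p 0.0242), without vehicle mouse 1 (0.0265) and without vehicle mouse 2 (0.0238). Lcn2 was higher in the lung of 5 of 6 mice at a log2 difference of 0.44 with a 95% confidence interval from -0.39 to 1.27. Neutrophil genes, of which 14 of 14 were higher in lung at a median log2 difference of 5.48, and hepatocyte genes, of which 8 of 11 tested were higher in heart, moved with these differences, and their part in them was not tested.

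Per kilobase of transcript, the order of the genes differed by organ as well. In vehicle hearts Lcn2 (1072 ± 775 CPM per kb, SD, n = 3), Serpina3n (621 ± 309) and Saa3 (442 ± 272) came first, with overlapping ranges, followed by Hp (132 ± 129). In vehicle lungs Saa3 (2082 ± 2257 CPM per kb), Lcn2 (1856 ± 517) and Hp (1834 ± 780) led with overlapping ranges and ranked 24th, 28th and 29th of 28825 genes with counts. Serpina3n followed at 350 ± 277 CPM per kb in vehicle lungs. Orm2 was last in the vehicle groups of both organs, at 1.36 ± 1.71 CPM per kb in hearts and 11 ± 12.9 in lungs.

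Whether the treatment difference itself differed between the organs was tested as an interaction over the same 12 libraries. No gene of the group and 0% of the 18318 genes tested passed the adjusted threshold in edgeR, with 797 genes (4.35%) at an unadjusted p below 0.05, Orm2 alone from this group. DESeq2 called 8 genes higher and 6 lower, none of them of this group, and gave no adjusted p for Orm2. The β-NMN difference in lung minus that in heart was -4.10 for Orm2 (SE 1.79, edgeR adjusted p 0.960), -3.09 for Saa2 (SE 1.66) and -3.0 for Orm1 (SE 1.57) on the log2 scale. Without β-NMN mouse 1 these were -2.94, -0.50 and -0.53, and without vehicle mouse 2 -2.19, -1.92 and -1.98. For Saa3 it was 0.17 with a 95% confidence interval from -2.11 to 2.45, which leaves differences between the organs of several fold in either direction within the interval.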

How the data were processed

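RNA-seq counts were analysed for 24 libraries of poly(A) RNA. The authors aligned reads with STAR (2.7.3a per the labels; another version is named in the methods) to mm10 and the deposited tables hold raw read counts per gene symbol from featureCounts 2.0.0. The annotation and strand setting are not given in the sources used here, and the sources differ on whether reads were single or paired. No column was left unassigned. One label field of the CLP organs names thioglycollate, while their titles and tissue fields name CLP, which was followed. 2 β-NMN hearts carry the same replicate number in their titles, and 1 of them was taken as replicate 2, so its match to a lung rests on the animal code.

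Each tissue was fitted alone in edgeR 4.0.16 (R 4.3.3) with filterByExpr (at least 10 reads), TMM scaling and the quasi-likelihood F-test, with Benjamini-Hochberg adjustment over all genes tested and a threshold of 0.05. Lung against heart and the interaction were fitted over the 12 CLP libraries. Standard errors were taken as the log2 fold change over the square root of F. Single genes were also compared by exact two-sided permutation of log2 CPM with a prior count of 2 (scipy 1.17.1). Alternatives were DESeq2 1.42.0, DESeq2 size factors, no filter, limma-voom 3.58.1 with sample weights, a replicate block and leaving out each replicate. Heart and lung came from the same mice. Their deviations from the group means correlated at r = 0.04 to 0.15, and the organ comparison was repeated with the mouse as a block.

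The genes and lists were chosen with earlier results of these data known. All 10 genes were named in every tissue. From each pathway list, the called genes with the smallest p (at most 4) or, where none was called, the 2 with the smallest p were named, and from marker lists the 2 most abundant; other genes named were chosen after their values were seen. Within each tissue, every library is a separate mouse. On simulated counts with 200 genes changed by 2 on the log2 scale, the test recovered 98.5% in peritoneal cells (14713 genes), 87.5% in hearts (16047) and 23.5% in lungs (16660), so lungs had the least power there. Only genes above a minimum mean level were changed, and the estimated dispersions were taken as true. These shares therefore need not hold for genes of low level or wide spread. The dispersions in lungs include the outlying lung of vehicle mouse 2. Intervals cover the spread between mice. Lengths are of the longest coding transcript in GENCODE M21.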

Additional observations from a re-analysis of the deposited data

Results flagged for a closer look

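Of 20 groups of 6 peritoneal libraries examined, 3 held a library far from the others, where chance gives about 1 in 20. Orm2 was at 1.90 CPM in vehicle mouse 4, with the nearest vehicle library at 1.01 CPM. Itih4, which was close to the lower end of detection throughout, was at 0.339 CPM in vehicle mouse 3 (nearest 0.125 CPM) and at 0.291 CPM in β-NMN mouse 4 (nearest 0.0659 CPM).

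Of 70 named genes examined, 3 had groups that separated in opposite directions in peritoneal cells and in a CLP organ. Cd163 was higher with β-NMN in peritoneal cells (log2 fold change 1.95) and lower in hearts (-1.45). Serpina3i was higher in peritoneal cells (1.86) and lower in hearts (-3.11). Hpx was higher in peritoneal cells, at 0.0341 to 0.161 CPM in vehicle and 0.163 to 0.266 CPM in β-NMN mice, a difference in mean log2 CPM (prior count of 2) of 1.17 in a gene that the low-count filter left out of the fit there, and lower in lungs (log2 fold change -1.42). The difference between the tissues was not tested for any of the 3, since the tables were normalized separately and hold different models.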

How the results depend on the processing

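In peritoneal cells 7 genes of the group were called under DESeq2, DESeq2 size factors, limma-voom and the replicate block, 8 without the filter, and 7 to 9 when any 1 library was left out, the added genes being Saa2 (lower) and Hpx (higher). With all libraries, Saa2 was above the low-count cutoff in 5 vehicle and 0 β-NMN libraries, and Hpx in 0 and 4. In the fits with 1 library left out both thus entered through the group in which they were high. In hearts DESeq2 called 2 and in lungs limma-voom called 1, where every other alternative called 0. In lung against heart the count was 1 to 4 when 1 mouse was left out, with 1 without β-NMN mouse 1 and 1 without β-NMN mouse 3, and 2 with the mouse as a block. DESeq2 gave no adjusted p for Orm2 in lung against heart (0.18) or in the interaction (-4.31).

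Direction changed for these log2 values, and the cause was not tested. In hearts under limma-voom Saa1 was at -0.50, Saa2 at -0.44, Orm1 at -0.69 and Hpx at -0.69. With 1 heart left out, values ran from -1.83 to 1.79 (Saa1), -2.06 to 1.68 (Saa2), -1.72 to 2.02 (Orm1), -0.60 to 3.21 (Orm2) and -1.89 to 4.15 (Hpx). In lungs Itih4 was at 0.026 without the filter, at 0.25 under limma-voom and at -0.12 to 0.13 with 1 lung left out, and Serpina3n at 0.19 with the replicate block and at -0.73 to 0.48 with 1 lung left out. In lung against heart Orm2 was at -0.28 under limma-voom and Orm1 at 0.036 with the mouse block, and with 1 mouse left out the ranges were -1.57 to 0.23 (Orm1), -0.89 to 1.25 (Orm2, -0.030 without β-NMN mouse 3), -0.086 to 1.52 (Saa1, -0.036 without vehicle mouse 2), -1.91 to 0.046 (Saa2) and -0.78 to 0.11 (Itih4). For the interaction they were -0.15 to 0.88 (Saa3, -0.0036 without vehicle mouse 1), -0.077 to 1.6 (Hp), -2.60 to 0.93 (Saa1) and -5.41 to 0.76 (Hpx).

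Same-numbered vehicle and β-NMN libraries correlated at r from -0.17 to 0.13 in peritoneal cells and -0.52 to 0.30 in lungs, overlapping the other pairs (-0.17 to 0.28 and -0.45 to 0.51). In hearts all 3 same-numbered pairs were positive (0.07 to 0.24) and above every other pair (-0.29 to 0.056), a hint from the data that numbers may pair hearts, but 1 of them was under 0.1 and the labels give no shared factor. The replicate block is therefore an alternative only, and it called 7, 0 and 0 genes of the group in peritoneal cells, hearts and lungs. Of the pathway lists, edgeR called 1 signaling gene in hearts without vehicle mouse 2 and 1 inducing cytokine in hearts without the filter. With 3 mice per group in each organ, most differences seen in hearts and lungs were within the spread between mice, and the lung of vehicle mouse 2, with 8915366 counts, was the shallowest library.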
